A study of Macaca mulatta with 11 samples.

Results

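The FOS and JUN subunits of the transcription factor AP-1 were followed across donor age in marrow stromal cells of the rhesus monkey. The members were the 7 genes FOS, FOSB, FOSL1, FOSL2, JUN, JUNB and JUND, chosen by family and with earlier results of these data known. They were measured by all 14 probe sets, of 22215 on the array, whose annotated symbol was one of these names, and each of the 14 carried that symbol alone. FOS, FOSB, FOSL1 and JUNB had 1 probe set each, FOSL2 and JUND had 3 each and JUN had 4. All 7 symbols also occur in the RefSeq gene table of the rhesus genome. Every member was retained, since no probe set was filtered out.

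AP-1 is a dimer of basic leucine zipper proteins. JUN proteins pair with each other or with FOS proteins, whereas FOS proteins need a JUN partner, and the dimer binds short DNA elements near genes of growth, matrix breakdown and inflammation. Several of the subunit genes are immediate early genes, which growth factors, serum and stress switch on within minutes, through MAP kinases acting on factors that already sit at the promoter. In stromal and bone-forming cells FOS and FOSL1 are known from mouse genetics as regulators of skeletal growth and matrix production.

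Total RNA of 11 cultured mesenchymal stem cell samples from bone marrow (Macaca mulatta) was hybridised, each to 1 array. The stages were gestation day 120 (fetal arrays 1 and 2), newborn (titled fetal arrays 3 and 4), infant (4 arrays, donors of 6, 6, 3 and 5 months for arrays 1 to 4) and adult (3 arrays, donors of 7, 7 and 8 years). All cultures shared the same serum-containing medium and were harvested before confluence at the second passage, with no treatment or genetic change named. Marrow was flushed from long bones for the fetal and newborn donors and aspirated under ketamine and lidocaine for the infant and adult donors, so collection and the fetal title cannot be told apart. The fetal group below means the 4 arrays so titled. Whether the arrays of a group stand for separate monkeys is not stated in the labels, so p-values measure the spread between cultures, and the number of arrays limits the precision.

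Values are log2 intensities. The arrays carry human probes by their annotation, so a level also depends on how well the probes match monkey RNA. Levels set beside those of other genes or beside the median carry that limit. All values on all arrays had a median log2 intensity of 7.38. Stromal markers (8 genes such as ENG and CD44) averaged between 8.40 and 8.70 log2 units on every array. Not all of them were bright. NT5E read 6.70 to 7.20, below that median on every array, and ALCAM read 7.21 to 7.61. The 6 leukocyte markers averaged between 7.11 and 7.47, and the 5 endothelial markers between 7.39 and 7.64. By their means 4 of these 6 and 3 of these 5 lay below the median of all values. The exceptions were PTPRC (7.14 to 7.93), CD163 (7.15 to 7.80), PECAM1 (7.57 to 8.40) and TEK (8.38 to 8.99). The 6 plasma and B cell markers averaged between 7.52 and 7.75 on fetal and infant arrays but stood at 8.74, 8.98 and 7.83 on adult arrays 1, 2 and 3. The immunoglobulin light chain genes IGLC1 (12.82, 13.23 and 9.10) and IGKC (9.36, 9.90 and 7.60) carried most of that excess, with JCHAIN at 7.05, 7.49 and 6.97. IGHM, CD79A and MS4A1 differed between adult and fetal cultures by -0.066, -0.16 and 0.00031. The first principal component, with 23.1% of the variance, set infant and adult arrays 1 and 2 (between -20.5 and -16.1) apart from the other 7 arrays (between 6.70 and 19.5). No label names a batch.

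None of the 14 member probe sets passed an adjusted p of 0.05 in limma over all probe sets in any comparison of ages. Over the whole array 0.131% of probe sets passed between adult and fetal, 0.018% between adult and infant, 0% between infant and fetal and 0% between newborn and gestation day 120 arrays. The arrays of some groups still did not overlap. On their brightest probe sets FOS and JUN read highest on the infant arrays, FOSL1 and FOSL2 read lower on every infant and adult array than on any fetal array, and FOSB, JUNB and JUND were high in the same 3 cultures of mixed age.

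**Figure D1:**
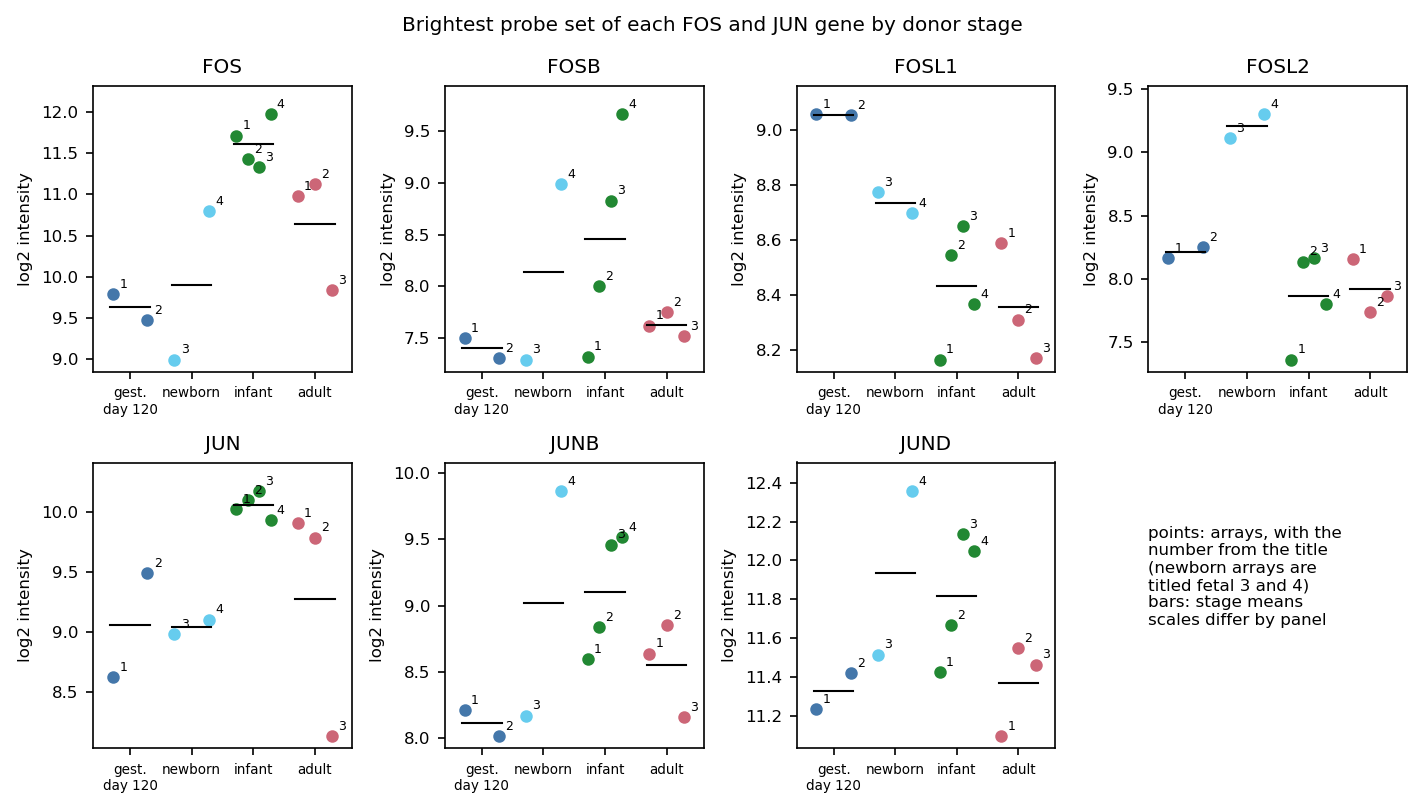
Log2 intensity of the brightest probe set of each of the 7 genes (y axis, own scale per panel) by donor stage (x axis). Points are single arrays labelled with their title number and bars are stage means; all 4 infant points of FOS and JUN lie above every other array, and points fetal 4, infant 3 and infant 4 lead FOSB, JUNB and JUND.

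FOS encodes the founding member of the FOS family, the partner that gives JUN a more stable and more active dimer. Its single probe set (209189_at) read 9.80 and 9.47 on the gestation day 120 arrays and 9.00 and 10.79 on the newborn arrays. It read 11.71, 11.43, 11.33 and 11.97 on infant arrays 1 to 4, and 10.98, 11.12 and 9.84 on adult arrays 1 to 3. Every infant array lay above every adult array and every fetal array, adult arrays 1 and 2 lay above all fetal arrays, and adult array 3 lay among the fetal ones. Over all arrays its standard deviation of 0.99 exceeded that of 99.9% of probe sets.

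FOS averaged 11.61 ± 0.29 in infant cultures and 9.77 ± 0.76 in fetal cultures (SD, n = 4 each). The log2 difference of 1.84 (SE 0.34), or 3.59-fold with a 95% interval of 2.18 to 5.90, was the second largest in size and had the seventh smallest p of 22215 probe sets, without passing (limma adjusted p = 0.197). Among the members FOS had the largest value in an earlier account of these data. Its ranks here are therefore a description and not independent support. Leaving out 1 array changed the call. Without fetal array 4, a newborn culture that read 10.79, the difference was 2.19 (SE 0.28) and passed (limma adjusted p = 0.0132). That array had the highest fetal FOS value, and without it 21 of all probe sets passed, against 0 with every array kept. Infant arrays exceeded the gestation day 120 arrays by 1.97 (SE 0.42, limma adjusted p = 0.318) and the newborn arrays by 1.71 (SE 0.42, limma adjusted p = 1). The first component sets infant and adult arrays 1 and 2 apart. FOS read 11.71 and 11.43 on infant arrays 1 and 2 and 11.33 and 11.97 on infant arrays 3 and 4. Every alternative run, including the one without infant and adult arrays 1 and 2, gave an infant minus fetal difference between 1.59 and 2.19. The part of the division on the first component in the FOS difference was not tested.

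Adults lay between the other ages for FOS, with a mean of 10.65 ± 0.70 (SD, n = 3). The adult minus infant difference was -0.96 (SE 0.36, limma adjusted p = 0.711) and the adult minus fetal difference was 0.88 (SE 0.36, limma adjusted p = 0.484). The adult values split, since adult array 3 was 1 log2 unit or more below the other adults. The same 2 brighter adult arrays had the high light chain signals given above. JCHAIN read 7.05 and 7.49 there, against 6.60 to 6.93 on fetal and infant arrays, while IGHM, CD79A and MS4A1 were not raised. The 6 plasma and B cell markers averaged between 7.52 and 7.75 on infant arrays. The part of such cells in the FOS values was not tested. Without adult array 3 the adult minus infant difference of FOS was -0.56 and the adult minus fetal one 1.28. Without adult arrays 1 and 2, which leaves adult array 3 alone, they were -1.77 and 0.073. The adult minus fetal difference was also 1.22 without fetal array 4 and 0.62 without fetal array 3.

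JUN is the subunit that can bind DNA as a homodimer and whose gene AP-1 itself activates. Like FOS, it read highest on the infant arrays on its brightest probe set, though those arrays ranked in the reverse order. That probe set (201464_x_at) read 8.62 and 9.49 on the gestation day 120 arrays and 8.98 and 9.10 on the newborn arrays. It read 10.02, 10.10, 10.17 and 9.93 on the infant arrays and 9.90, 9.78 and 8.13 on the adult arrays. The infant values lay within 0.24 of each other and above all other arrays, while adult array 3 held the lowest value of all 11.

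JUN averaged 10.05 ± 0.10 in infant cultures and 9.05 ± 0.36 in fetal cultures (SD, n = 4 each), a log2 difference of 1.01 (SE 0.30, limma adjusted p = 0.546). Its other 3 probe sets, all dimmer, differed in the same direction, by 0.38, 0.41 and 0.32 (limma adjusted p between 0.497 and 0.708), and the infant and fetal arrays did not overlap for 2 of these 3. They share a target, so the 4 probe sets are not separate evidence. The probe sets 201466_s_at and 213281_at averaged 7.36 and 7.24, below the median of all values.

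Adult JUN was divided in the same way as adult FOS. The adult minus infant difference of 201464_x_at was -0.78 (SE 0.33, limma adjusted p = 0.767), but -0.21 without adult array 3 and -1.93 for adult array 3 alone. Between adult and fetal cultures it differed by 0.23 (SE 0.33, limma adjusted p = 0.897), with 0.80 when adult array 3 was left out and -0.92 for adult array 3 alone. Probe set 201465_s_at also had its lowest value on adult array 3, at 7.16 against 8.10 and 7.96 on adult arrays 1 and 2. Probe sets 201466_s_at and 213281_at did not repeat this, with 7.45 and 7.26 on adult array 3 against 7.58 and 7.21 on adult array 1 and 7.64 and 7.26 on adult array 2. For 201466_s_at the adult arrays all lay above the fetal ones, by 0.48 (SE 0.12, limma adjusted p = 0.179), which gave the smallest adjusted p of any member in that comparison.

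**Figure D2:**
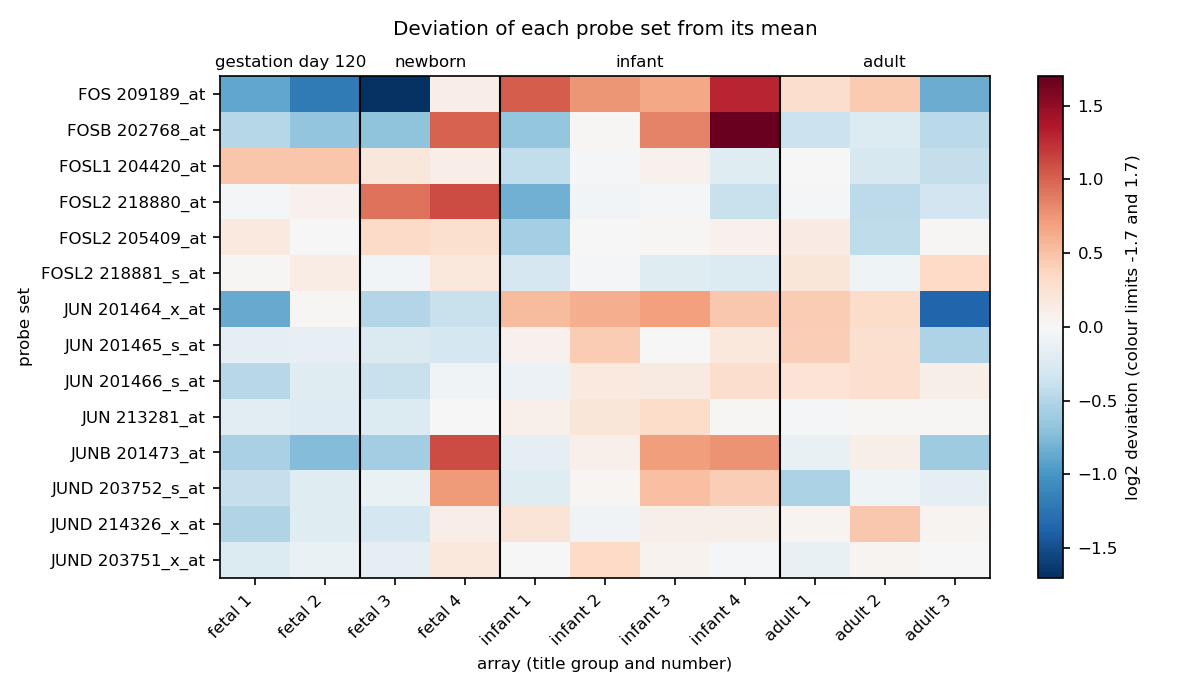
Log2 deviation of each of the 14 probe sets (rows) from its own mean over 11 arrays (columns, ordered by stage). Red is above and blue below the mean; FOS and the brightest JUN probe set are red in all 4 infant columns, FOSL1 is red in the 4 fetal columns, and FOSB, JUNB and JUND share red cells on fetal 4, infant 3 and infant 4.

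FOSL1 and FOSL2 encode FOS-related antigens, which lack the strong activation domain of FOS and in many cells accumulate later and last longer after a stimulus. FOSL1 (204420_at) ran opposite to FOS. It read 9.06 and 9.06 on the gestation day 120 arrays, 8.77 and 8.70 on the newborn arrays, 8.17, 8.54, 8.65 and 8.37 on the infant arrays and 8.59, 8.31 and 8.17 on the adult arrays. All 4 fetal arrays exceeded all infant and adult arrays, and the closest values were 8.65 on infant array 3 and 8.70 on fetal array 4.

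FOSL1 averaged 8.36 ± 0.21 (SD, n = 3) in adult and 8.90 ± 0.19 (SD, n = 4) in fetal cultures, a log2 difference of -0.54 (SE 0.14, limma adjusted p = 0.208). Infant cultures, at 8.43 ± 0.21 (SD, n = 4), differed from fetal ones by -0.46 (SE 0.13, limma adjusted p = 0.507). Leaving out any 1 array kept the adult minus fetal difference between -0.66 and -0.45. Adult and infant cultures differed by -0.075, with a 95% interval from -0.38 to 0.23.

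FOSL2 read highest on the newborn arrays on 2 of its 3 probe sets, with a wide gap on the brightest. Probe set 218880_at read 8.17 and 8.25 at gestation day 120, 9.11 and 9.30 in newborns, 7.36, 8.14, 8.17 and 7.80 in infants and 8.16, 7.74 and 7.86 in adults. Both newborn arrays stood above all others, and all fetal arrays stood above every infant and adult array, with 8.167 on fetal array 1 against 8.166 on infant array 3 as the narrowest gap. The newborn minus gestation day 120 difference was 0.99 (SE 0.23, limma adjusted p = 1), with 2 arrays in each group. The infant minus newborn difference of -1.34 (SE 0.20) had the smallest p of all 22215 probe sets in that contrast and still did not pass (limma adjusted p = 0.372). Adults differed from newborns by -1.29 (SE 0.21, limma adjusted p = 0.122), a contrast in which 0.009% of all probe sets passed.

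The other FOSL2 probe sets differed less. Probe set 205409_at read 8.47 and 8.41 on the newborn arrays, above the next value of 8.30 on fetal array 1. It differed between newborn and gestation day 120 arrays by 0.22 (SE 0.23) and 218881_s_at by -0.0030 (SE 0.16), both with limma adjusted p = 1. Between infant and fetal cultures the 3 FOSL2 probe sets differed by -0.84, -0.31 and -0.26 on the log2 scale (limma adjusted p between 0.535 and 0.756). Between adult and fetal cultures they differed by -0.79, -0.28 and 0.085, so the last went the other way.

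FOSB, a FOS relative that serum induces together with FOS, had the widest spread of the 14 probe sets among infant cultures. Its single probe set (202768_at) read 7.50 and 7.31 at gestation day 120, 7.30 and 8.98 in newborns, 7.32, 8.01, 8.83 and 9.66 in infants and 7.62, 7.75 and 7.52 in adults. Fetal array 4, infant array 3 and infant array 4 were the 3 highest, and the other 8 arrays lay between 7.30 and 8.01. Infant and fetal cultures averaged 8.45 ± 1.01 and 7.77 ± 0.81 (SD, n = 4 each), and their difference of 0.68 (SE 0.43, limma adjusted p = 0.813) was smaller than either SD. It was 1.08 without fetal array 4 and 0.28 without infant array 4. The adult cultures, by contrast, lay within 0.23 of each other.

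JUNB, a JUN protein that often opposes JUN in growth control, and JUND, the JUN protein that resting cells express most steadily, ranked the same 3 arrays highest. JUNB (201473_at) read 8.21 and 8.01 at gestation day 120, 8.17 and 9.87 in newborns, 8.60, 8.84, 9.46 and 9.51 in infants and 8.64, 8.85 and 8.15 in adults. Fetal array 4 was the highest of all, and the other 3 fetal arrays lay below every infant array. Infants averaged 9.10 ± 0.46 and fetal cultures 8.56 ± 0.87 (SD, n = 4 each), a difference of 0.54 (SE 0.34, limma adjusted p = 0.814). Without fetal array 4 it was 0.97 and did not pass (limma adjusted p = 0.142), and it was 0.35 without fetal array 2.

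JUND (203752_s_at) read 11.23 and 11.42 at gestation day 120, 11.52 and 12.36 in newborns, 11.43, 11.67, 12.13 and 12.05 in infants and 11.10, 11.55 and 11.46 in adults. Its full range of 1.26 was narrower than the 2.97 of FOS. Adult and infant cultures differed by -0.45 (SE 0.24, limma adjusted p = 0.819), and infant and fetal cultures by 0.19 (SE 0.22, limma adjusted p = 0.915). With 1 array left out the infant minus fetal difference of JUND spanned 0.054 (without fetal array 1) to 0.43 (without fetal array 4). The dimmer JUND probe sets 214326_x_at and 203751_x_at did not rank the same 3 arrays highest, with adult array 2 at 8.59 and infant array 2 at 8.14 as their maxima.

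**Figure D3:**
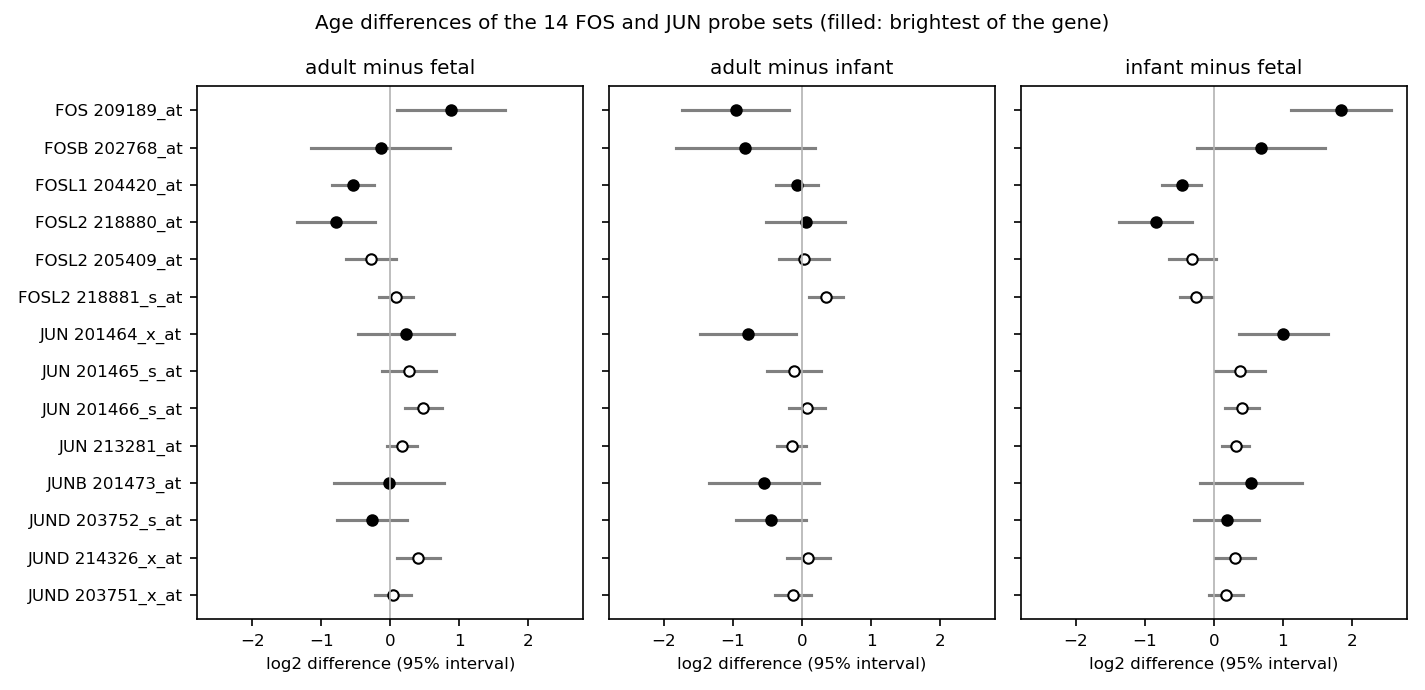
Log2 difference (x axis) with its 95% interval from limma for the 14 probe sets (rows), by comparison (panels). Filled points are the brightest probe set of a gene and open points the others; the infant minus fetal panel has FOS at 1.84 and JUN at 1.01 on the right and FOSL2 at -0.84 and FOSL1 at -0.46 on the left, and no probe set passed after adjustment.

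Counted together, 9 of 14 member probe sets had an unadjusted p under 0.05 between infant and fetal cultures, where 6.87% of all probe sets did. Of these, 6 were higher and 3 lower in infants, against 2.33% and 4.55% of all probe sets. The arrays of these groups did not overlap for 6 of 14, where 3.34% of all probe sets did not. Between adult and fetal cultures 5 of 14 had an unadjusted p under 0.05, against 8.96% of all, and 3 did not overlap, against 8.08%. Between adult and infant cultures the counts were 3 and 2, against 6.19% and 4.98% of all probe sets. For newborn against gestation day 120 they were 2 and 5, against 1.81% and 28.8%. The comparisons share groups of arrays, and probe sets of one gene share a target. The members were chosen with earlier results of these data known, so the counts are a description. On the 7 brightest probe sets the median log2 difference was 0.61 between newborn and gestation day 120, 0.54 between infant and fetal, -0.56 between adult and infant and -0.14 between adult and fetal cultures, where the median of all probe sets lay within 0.013 of 0 in each.

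Correlations over the 11 arrays describe which subunits moved together. The arrays share donors' ages and the division on the first component. FOSB and JUNB correlated at Pearson 0.90 and Spearman 0.90, JUNB and JUND at 0.86 and 0.75, and FOSB and JUND at 0.85 and 0.72. After each group's mean was removed, Pearson values were 0.88, 0.87 and 0.84, and with the 2 arrays farthest from the median of the first-named gene left out they were 0.89, 0.69 and 0.80. FOS and JUN correlated at Pearson 0.75 and Spearman 0.79, with 0.47 after the group means were removed. FOS and JUNB correlated at Pearson 0.70 and Spearman 0.65, with 0.76 after the group means were removed. FOS and FOSL1 ran in opposite directions at Pearson -0.57 and Spearman -0.67, and stood at -0.081 within groups.

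Outside the family, the genes most like each member were sought among 11956 genes by Pearson correlation over the 11 arrays. For JUNB they were the Kruppel-like factors KLF4 (0.97) and KLF2 (0.97), the MAP kinase phosphatase DUSP1 (0.96), the Notch target HES1 (0.94) and TSC22D1 (0.92). FOSB was most like the stress-induced GADD45B (0.96), then ALDH3B1, KLF4, KLF2 and the orphan nuclear receptor NR4A2, all at 0.91 or above. JUND was most like NR4A2 (0.93), KLF2 (0.93), the small MAF protein MAFF (0.92), the serum-induced kinase SGK1 (0.91) and TBX3 (0.90).

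The FOS pattern had other neighbours. SDCBP, the scaffold protein syntenin, was closest (0.91), followed by FERMT2, an integrin-binding kindlin (0.88), CYTH1 (0.87), EGR1 (0.86) and OR1D5 (0.85). JUN was most like LAMB3, GAS7, MOB4, GPR176 and SNTB2, at 0.87 to 0.91. FOSL1 was most like the topoisomerase TOP1 (0.95), CYB561D2, HDGF, the ubiquitin ligase subunit SKP2 and HMGB1, all at 0.90 or above. FOSL2 was most like BPGM, MAGEA1, SEC23B, DNAH3 and LARP1, at 0.88 to 0.92, and the Spearman values of MAGEA1 and SEC23B were 0.58 and 0.62. They were also low for GPR176 with JUN (0.62) and NR4A2 with FOSB (0.60). LAMB3, OR1D5, BPGM, MAGEA1 and TBX3 averaged 7.00, 7.29, 6.97, 6.92 and 7.27, below the median of all values. All these genes were picked as the highest of 11956 over 11 arrays, so high values partly reflect the choice.

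Some other immediate early genes shared the arrays on which FOSB, JUNB and JUND were high. Fetal array 4 and infant arrays 3 and 4 were the 3 highest arrays for 9 of 24 measured genes of that list (NR4A1, NR4A2, NR4A3, KLF2, KLF4, KLF10, GADD45B, SGK1 and TRIB1) and for 94 of 11963 genes in all, or 0.786%. This count was made after the values were seen. KLF2, KLF4, NR4A2, GADD45B and SGK1 were also among the genes most like FOSB, JUNB or JUND, so the count is not separate support. KLF4 read 10.51 on fetal array 4, 10.06 and 10.53 on infant arrays 3 and 4 and between 7.77 and 9.21 on the other 8 arrays. NR4A2 read 10.80, 9.86 and 10.11 on those 3 arrays and between 7.42 and 8.04 elsewhere. The same 3 arrays led for 3 of 13 feedback and mRNA decay genes, namely DUSP1, DUSP5 and ZFP36, and for 2 of 9 other basic leucine zipper partners, ATF3 and MAFF.

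None of the 24 other immediate early genes passed in any comparison. They were higher in infant than fetal cultures in 18 of 24 cases, with a median log2 difference of 0.16 (all genes -0.016), and lower in adult than infant cultures in 20 of 24, with a median of -0.25 (all genes 0.017). EGR1, a zinc finger factor induced with FOS, averaged 11.33 in infant and 10.10 in fetal cultures, a log2 difference of 1.22 (SE 0.30, limma adjusted p = 0.472). NR4A3, another nuclear receptor, differed by -1.16 (SE 0.35, limma adjusted p = 0.551) and KLF6 by -0.61 (SE 0.20, limma adjusted p = 0.616) between adult and infant cultures.

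The 9 other basic leucine zipper genes that can pair with FOS or JUN had no called member in any comparison. ATF2, which binds JUN, had the smallest p between adult and fetal cultures, at 0.35 (SE 0.14, limma adjusted p = 0.44). ATF3 averaged 7.62 in adult and 8.02 in infant cultures, a log2 difference of -0.40 (SE 0.24, limma adjusted p = 0.834), and was highest on infant array 4 (8.58) and fetal array 4 (8.45).

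Among upstream genes, no call was made. Of 12 kinases of the ERK, JNK and p38 cascades, 5 were higher and 7 lower in adult than fetal cultures and none passed, and RPS6KA3, a kinase below ERK, had the smallest p at -0.37 (SE 0.12, limma adjusted p = 0.312). Of 8 regulators of FOS transcription none passed. SRF, the serum response factor, averaged 8.55 in adult and 8.87 in fetal cultures, a difference of -0.32 (SE 0.15, limma adjusted p = 0.537). Infant cultures averaged 8.84, above adults on every array, with an adult minus infant difference of -0.29 (SE 0.15, limma adjusted p = 0.81) and an infant minus fetal one of -0.030 (SE 0.13, limma adjusted p = 0.979). Its cofactor ELK4 had the smallest p between adult and infant cultures, at 0.43 (SE 0.13, limma adjusted p = 0.519). Of 3 measured genes for JUN protein turnover (FBXW7, ITCH and GSK3B) none passed, with limma adjusted p of at least 0.882 in the comparisons of the title groups.

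Feedback genes of MAP kinase signalling, listed with the mRNA decay factors ZFP36 and ZFP36L1, were lower in adult than fetal cultures in 11 of 13 cases. The median log2 difference was -0.16 (all genes 0.00034, with 5968 of 11963 lower), and none passed. DUSP6, an ERK phosphatase, had the smallest p, at -0.98 (SE 0.28, limma adjusted p = 0.242), and SPRED2 was next at -0.41 (SE 0.12, limma adjusted p = 0.274). DUSP1, which inactivates JNK and p38 and is itself an immediate early gene, averaged 9.51 in infant and 8.75 in fetal cultures, a difference of 0.75 (SE 0.30, limma adjusted p = 0.666).

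None of 24 genes with known AP-1 sites passed in any comparison. They were lower in infant than fetal cultures in 19 of 24 cases, with a median log2 difference of -0.12, where 6532 of all 11963 genes were lower with a median of -0.016. They were lower in adult than fetal cultures in 19 of 24, with a median of -0.20, where 5968 of all genes were lower with a median of 0.00034. At an unadjusted p under 0.05, 3 of the 24 were lower and 0 higher in infant than fetal cultures. Of all 11963 genes, 642 were lower and 267 higher at that threshold. CD44, the hyaluronan receptor and also one of the stromal markers, differed between adult and fetal cultures by -0.55 (SE 0.13, limma adjusted p = 0.132), and the chemokine gene CCL2 by 0.68 (SE 0.18, limma adjusted p = 0.212). TGFB1 differed between infant and fetal cultures by -0.67 (SE 0.18, limma adjusted p = 0.497). The collagenase genes MMP1 and MMP13, classical AP-1 targets, averaged 6.79 and 7.34 in infant and 6.88 and 7.43 in fetal cultures. The mean deviation of this list followed the first component, at -0.27 to -0.090 on infant and adult arrays 1 and 2 and 0.016 to 0.20 on the other 7. The part of that division in the list's differences was not tested.

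**Figure D4:**
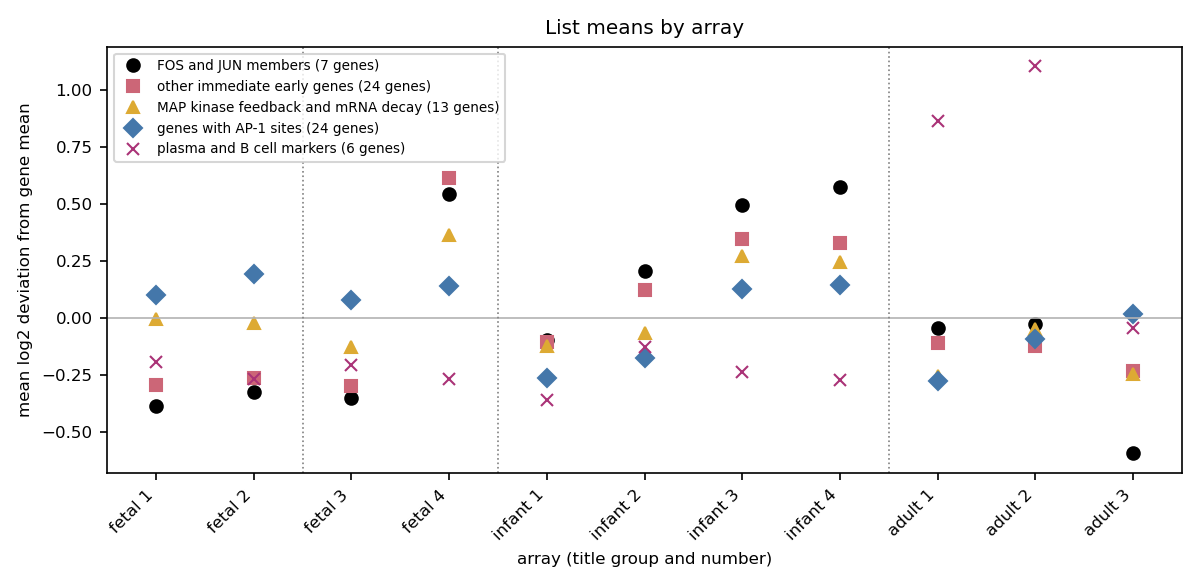
Mean log2 deviation from each gene's own mean (y axis) for 5 gene lists on each of the 11 arrays (x axis, ordered by stage, dotted lines between stages). The 7 FOS and JUN members and the 24 other immediate early genes peak on fetal 4, infant 3 and infant 4, the genes with AP-1 sites lie below 0 on infant and adult 1 and 2, and the plasma and B cell markers, through their light chain genes, peak on adult 1 and 2.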

How the data were processed

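Per the labels' protocols, targets made from total RNA by one-cycle labelling with biotin were hybridised. The authors deposited intensities that the submitters' processing notes credit to RMA. This method subtracts background, equalises the arrays' distributions and combines the probes of a set, so overall brightness differences were removed before deposit. Intensities lay on a linear scale (lowest 75.3, array medians 164.9 to 169.6) and log2 was taken. No pair of arrays was identical.

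Limma 3.58.1 in R 4.3.3 (lmFit, eBayes) fitted 1 mean per title group over all 11 arrays, or 1 per stage for newborn and gestation day 120, without filters, weights or blocks, with two-sided contrasts and Benjamini-Hochberg adjustment over 22215 probe sets. The fits were tested on simulated data. The members and lists were chosen with earlier results of these data known. All member probe sets are given, and each gene's brightest one leads. Genes named from the other lists were among the 2 of smallest p in a comparison, and the 5 genes most like each member were named. MMP1, MMP13, the infant minus fetal value of SRF and the genes sharing the 3 highest arrays were added after their values were seen. Names came from 19065 probe sets with 1 symbol (1043 had several, 2107 none). Promoter and protein sequences were not analysed here.

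Replicate numbers in the titles gave correlations of deviations of 0.145, 0.131 and 0.204 for adult and infant arrays, above 0.1 in every pair. No member call between those groups changed with the replicate block, and the count of all probe sets called was 9 in place of 4. For adult and fetal arrays (-0.097 to 0.068) and infant and fetal arrays (0.0077 to 0.275) not every pair was above 0.1. So few correlations cannot show whether the numbers mark a shared animal or batch.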

Additional observations from a re-analysis of the deposited data

Results flagged for a closer look

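In 28 groups of 4 arrays (14 probe sets in fetal and infant cultures), 3 held an array far from the other 3 by Dixon's test, where chance gives about 1 in 20. FOSB read 8.98 on fetal array 4, against 7.50 on the next fetal array. JUNB read 9.87 on the same array, against 8.21 on the next. FOSL2 on probe set 205409_at read 7.56 on infant array 1, against 8.14 on the next infant array, and its other 2 probe sets also had their lowest value there. Fetal array 4 came from a newborn donor.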

How the results depend on the processing

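Of the alternatives run, 21 of 22 between adult and fetal, 19 of 20 between adult and infant, 20 of 22 between infant and fetal and 18 of 18 between newborn and gestation day 120 called no member probe set. The exceptions were the replicate block, which called 2 members between adult and fetal arrays (FOS, adjusted p = 0.0295, and JUN 201466_s_at, adjusted p = 0.0392) and 1 between infant and fetal arrays (FOS at 1.84, adjusted p = 0.00613); leaving out fetal array 4 (FOS); and leaving out adult arrays 1 and 2, chosen after the data were seen, which called 1 (JUN 201464_x_at) between adult and infant arrays. That last call has a lone adult array, the lowest for JUN of all 11, assumed to vary like the other groups, so it says nothing of adults in general. Leaving out 1 array gave 0 to 1 called members and FOS at 1.59 to 2.19 between infant and fetal arrays. No label says whether the numbers in the titles pair these groups, and the correlations of deviations cannot decide it. No reading of a weaker or stronger effect is drawn from the block.

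The count of all probe sets called between adult and fetal arrays was 29. It was 12 with 50 intensity units added before log2, 120 with array weights, 221 with the replicate block, 16 with only these groups, 2 with newborns alone as fetal, 65 without infant and adult arrays 1 and 2, 44 without adult arrays 1 and 2, and 4 to 153 with 1 array left out. Between adult and infant arrays it was 4, against 10 with array weights, 8 with an intensity trend, 9 with the replicate block, 2 with only these groups, 10 and 44 without the same arrays, and 0 to 55 with 1 left out. Between infant and fetal arrays 0 became 1 without dim probe sets, 1 with array weights, 2 with the block and 0 to 21 with 1 left out. Between newborn and gestation day 120 arrays it was 0 to 2.

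Signs turned for differences that did not pass. Between adult and fetal arrays FOSB became 0.26 with the block and 0.23 against gestation day 120 alone, JUNB 0.025 when quantile normalized again, 0.11 with array weights, 0.27 with the block and 0.43 against gestation day 120, JUND 0.044 against gestation day 120 and 0.41 and 0.045 on its other probe sets, FOSL2 0.085 on 218881_s_at, and JUN -0.92 without adult arrays 1 and 2, with or without infant arrays 1 and 2. With 1 array left out these spanned -0.30 to 0.26 for FOSB, -0.20 to 0.42 for JUNB and -0.090 to 0.80 for JUN. Between adult and infant arrays FOSL2 became -0.12 and -0.0049 without those arrays, JUN 0.074 on 201466_s_at and JUND 0.093 on 214326_x_at, and 1 array left out gave -0.12 to 0.15 for FOSL2 and -0.19 to 0.018 for FOSL1. JUND became -0.12 between infant and newborn arrays. Between newborn and gestation day 120 arrays FOSL2 was -0.0030 on 218881_s_at, JUN 0.12 and 0.078 on 201466_s_at and 213281_at, and 1 array left out gave -0.63 to 1.16 for FOS, -0.11 to 1.58 for FOSB and -0.45 to 0.42 for JUN. The cause was not tested.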
